A study of Drosophila melanogaster with 84 samples.

Results

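The cytosolic ribosomal protein genes of *Drosophila melanogaster* were followed in the abdominal fat body by temperature, diet, genotype and time of day. They were found by symbol: every row whose symbol begins with RpL or RpS followed by a digit, plus RpLP0, RpLP1, RpLP2 and sta. The rule found 92 genes among 23932 features of the table, and no measured value entered it. Each gene's level was given in TPM, the share of transcripts after correction for length, scaled so that every library sums to the same total.

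All groups were mated females in a 12 h light and 12 h dark cycle, about 3 days old when the cycle began. The labels give day 5 for every library, and fat tissue of 10 flies was pooled in each. In the paper, the 18°C flies were raised at 25°C and moved after 3 days in the cycle, and day 5 counts from that move. The wild type (WT) was the w1118 strain. WT flies were kept at 18°C on food with 15% sucrose and yeast (15SY, 24 libraries), at 25°C on food with 5% (5SY, 24 libraries), or at 25°C on 15SY (24 libraries). Clk-Jrk mutants, backcrossed 7 times to that strain, were kept at 25°C on 15SY (12 libraries). WT groups had 2 libraries at each of 12 times from ZT2 to ZT24, and Clk-Jrk had 2 at each of 6 times from ZT2 to ZT22, where ZT is hours since lights on. The labels number the 2 libraries at each time as replicate 1 and replicate 2 without saying how they differ. Light and dark time points came from separate incubators on opposite schedules, so light phase and incubator cannot be told apart.

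A ribosome is built from ribosomal RNA and many different proteins, nearly all present in a single copy: those of the small subunit (RpS genes and sta), which reads the mRNA, and those of the large subunit (RpL genes), which forms peptide bonds. Their genes are among the most strongly transcribed in growing cells and are commonly regulated together, with TOR signalling and Myc as known inputs. In the female fat body, an organ of storage and secretion, they support the synthesis of proteins such as yolk proteins. Several genes have duplicate copies, some of which are known mainly from the germ line.

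Libraries differed strongly by replicate number, a fact that bears on every comparison. Mitochondrially encoded transcripts took a median of 17.4% of TPM in replicate 1 and 7.81% in replicate 2 at 18°C, against 14.7% and 6.48% in WT at 25°C on 15SY. They took 9.76% and 7.33% on 5SY, and 6.22% and 10.2% in Clk-Jrk. Of 13 fat body markers, 12 had a median above 1 TPM in every group. The clock gene tim had a median of 3.47 TPM in Clk-Jrk, against 57.8 TPM in WT at 25°C on 15SY, and its time point means spanned 1.80-fold in Clk-Jrk, against 10.9-fold in WT. By Spearman correlation over other genes, 5 libraries stood apart from their group: 5SY replicate 1 at ZT20 and ZT22, 5SY replicate 2 at ZT22, and WT at 25°C on 15SY replicate 1 at ZT2 and ZT4. Leaving these out moved no count of called or cycling ribosomal protein genes by over 1.5 times. In bulk tissue, fewer cells of a type and less RNA per cell cannot be told apart. Nothing states that replicates came from separate cultures of flies, so p-values measure only the spread between these libraries.

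Ribosomal protein transcripts made up between 15.4% and 30.6% of all TPM, with a median of 22.9% over the 84 libraries. The median share was 23.0% at 18°C, 24.6% on 5SY, 21.7% in Clk-Jrk and 22.9% in WT at 25°C on 15SY. On 5SY the share was 15.4 to 24.7% in the 12 replicate 1 libraries and 24.5 to 30.6% in the 12 replicate 2 libraries, so the replicates hardly overlapped. At 18°C it was 15.4 to 25.8% in replicate 1 and 22.8 to 28.2% in replicate 2. In Clk-Jrk the order was the other way, with 20.4 to 26.4% in replicate 1 and 17.1 to 23.2% in replicate 2. In WT at 25°C on 15SY it was 19.8 to 26.5% and 21.2 to 30.0%. In 3 of the 4 groups the medians of the replicates lay further apart than any pair of group medians.

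**Figure D1:**
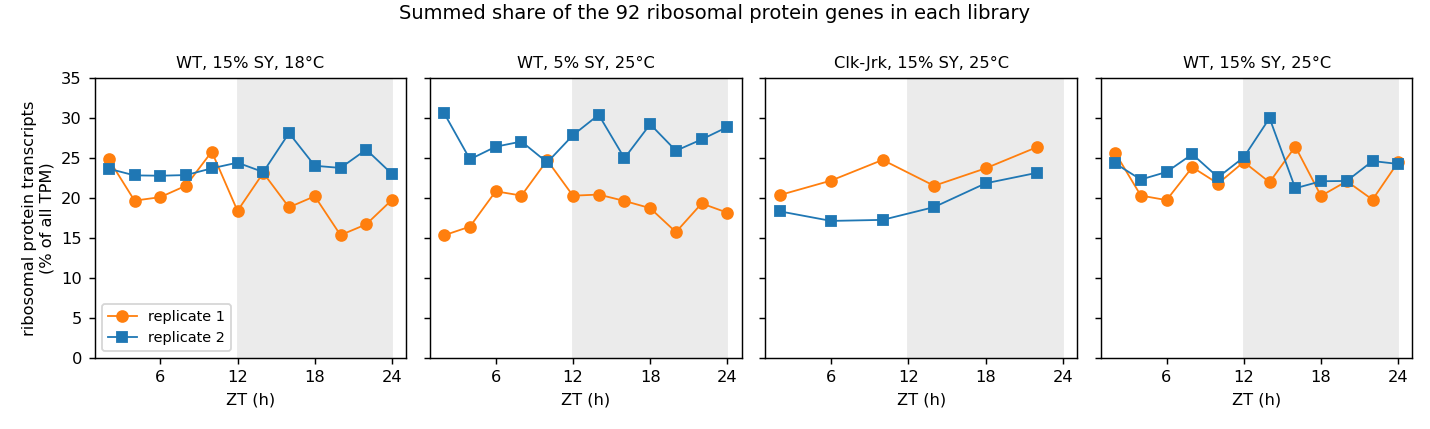
Share of all TPM taken by the 92 ribosomal protein genes (y axis, %) against ZT (x axis, h) in each library, with replicate 1 in orange, replicate 2 in blue and the dark phase shaded. On 5SY replicate 1 spans 15.4 to 24.7% and replicate 2 spans 24.5 to 30.6%.

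Of the 92 genes, 80 had a level above 500 TPM (the mean of the 4 group medians), 5 lay between 50 and 500 TPM and 7 lay below 1 TPM. The abundant genes were close to one another: in WT at 25°C on 15SY the 90th percentile of their medians was 3858 TPM and the 10th was 1687 TPM, a ratio of 2.29. Large-subunit genes had a median level of 2788 TPM (47 abundant genes) and small-subunit genes 2905 TPM (33 abundant genes) in that group. Ribosomal protein genes made up 66 of the 100 highest features. The highest was RpL41, which encodes one of the smallest known proteins. Its median was 12192 TPM at 18°C, 10233 TPM on 5SY, 7416 TPM in Clk-Jrk and 10669 TPM in WT at 25°C on 15SY. RpL41 lies on chromosome 2R (chr2R:24903416-24903935, minus strand, BDGP6) and has only 320 exonic bases in the annotation, a length at which TPM depends strongly on the assumed transcript.

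The 7 genes below 1 TPM were duplicate copies: RpL10Aa, RpL22-like, RpL37b, RpS10a, RpS19b, RpS28a and RpS28-like. Their highest value in any library was 2.56 TPM, for RpS19b at 18°C. The copies RpL10Ab, RpL22, RpL37a, RpS10b, RpS19a and RpS28b supplied between 99.8 and 100% of the TPM of their copies in every library. RpS15Aa supplied a median of 98.0% of the RpS15A pair in WT at 25°C on 15SY, and RpL7 supplied 97.5% of the total with RpL7-like. RpL7-like shares 98.8% of its exonic bases with CG34164 on the same strand, so its value is uncertain. The RpL24 and RpL24-like genes are relatives with different work, since the yeast relative of RpL24-like acts in the assembly of the large subunit. RpL24 took 81.7% of their sum in Clk-Jrk, against 84.1% in WT at 25°C on 15SY.

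RpS14a and RpS14b, neighbours on the X chromosome that encode the same protein, both reached high levels. RpS14a took a median of 70.1% of the pair at 18°C, 71.6% on 5SY, 70.3% in Clk-Jrk and 70.7% in WT at 25°C on 15SY. The split stayed between 67.1% and 74.0% over all libraries, although the estimate of each copy depends on how reads of near-identical copies were shared. In all, 31 of the 92 genes share some exonic bases with another annotated gene, and 29 hold a snoRNA gene within their span. Reads were counted without regard to strand, so transcripts from either strand of a shared stretch cannot be told apart.

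The first comparison asked which ribosomal protein genes changed with temperature. At 18°C 14 genes fell and 1 rose relative to 25°C, among 85 that passed the filter of a median above 5 TPM in either group (limma on log2(TPM + 1), adjusted p below 0.05). Over all 7157 features tested, 28.7% fell and 22.1% rose, so the share of ribosomal protein genes called lay below that of the table in both directions in this fit. The order for lower genes turned with replicate 2 left out, when 22 of 85 were lower against 20.6% of all features. It turned too with replicate number added as a block, when 30 of 85 were lower against 33% of all features. The ribosomal protein genes had a median log2 difference of -0.12, against -0.06 over all features. Of the 85, 72 differed by less than 0.25 on the log2 scale. All 3 comparisons share the WT libraries at 25°C on 15SY, in whole or in part.

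RpS20, a protein of the small-subunit head, fell in each replicate, by less in replicate 2. Its log2 difference there lay 0.34 ± 0.10 above that in replicate 1 (SE, limma adjusted p = 0.027). Its level had a lowest value of 1643, a median of 2232.5 and a highest value of 2909 TPM at 18°C, against 2338, 2854.5 and 3806 TPM at 25°C. The mean at 18°C was lower at 12 of 12 time points, although the ranges overlapped. The log2 difference was -0.37 ± 0.06 (SE, n = 24 against 24), with a limma adjusted p of 2.7e-06. RpS20 lies on chr3R:20822181-20823356 (plus strand) and shares 7.8% of its exonic bases with CG17272 on the other strand.

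RpS29, another protein of the small subunit, had a lower mean at 18°C at 12 of 12 time points too. Its mean was 3323 TPM in the cold against 3988 TPM at 25°C, a log2 difference of -0.26 ± 0.05 (SE). RpL5 carries a small ribosomal RNA into the large subunit together with RpL11. It averaged 4160 TPM at 18°C and 4858 TPM at 25°C, a log2 difference of -0.22 ± 0.05. RpLP0, the base of the stalk that recruits elongation factors, had a log2 difference of -0.27 ± 0.11. These 4 genes, RpS20, RpS29, RpL5 and RpLP0, were also called lower in each replicate fitted alone.

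RpS6, the phosphorylation target of S6 kinase downstream of TOR, averaged 2118 TPM at 18°C and 2509 TPM at 25°C. Its log2 difference was -0.29 ± 0.10 (limma adjusted p = 0.018), with -0.43 in replicate 1 alone and -0.14 in replicate 2 alone. RpL34a, the lower of the RpL34 copies, and RpL24-like fell by 0.38 and 0.36 on the log2 scale. RpL30, RpL37a (a different gene from RpL37A), RpL7, RpL6, RpS10b and RpS4 fell by smaller amounts, from 0.25 to 0.14. RpL41 was the one gene that rose, with a mean of 12466 TPM at 18°C and 10553 TPM at 25°C and a higher mean at 11 of 12 time points. Its log2 difference was 0.26 ± 0.09 (limma adjusted p = 0.021), with 0.12 in replicate 1 alone and 0.40 in replicate 2 alone.

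Genes with large but variable differences did not pass. RpL8, a core protein next to the site of peptide bond formation, averaged 1494 TPM at 18°C and 1738 TPM at 25°C, a log2 difference of -0.39 ± 0.23 (limma adjusted p = 0.16). RpL35A likewise had -0.37 ± 0.20. At the other end, RpL38, RpLP2, RpL15 and RpL22 had differences of 0.10, 0.09, 0.09 and 0.08 and were not called. With replicate 1 left out, 4 genes were lower and 5 higher at 18°C, while 10.9% of all features were lower and 17.2% higher. With replicate 2 left out the 22 lower genes stood beside 0 higher ones, while 19% of all features were higher, and 41 of 85 had an unadjusted p below 0.05 in either direction (limma). With median-of-ratios scaling 6 were lower and 1 higher, while 29.7% of all features were lower and 26% higher.

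**Figure D2:**
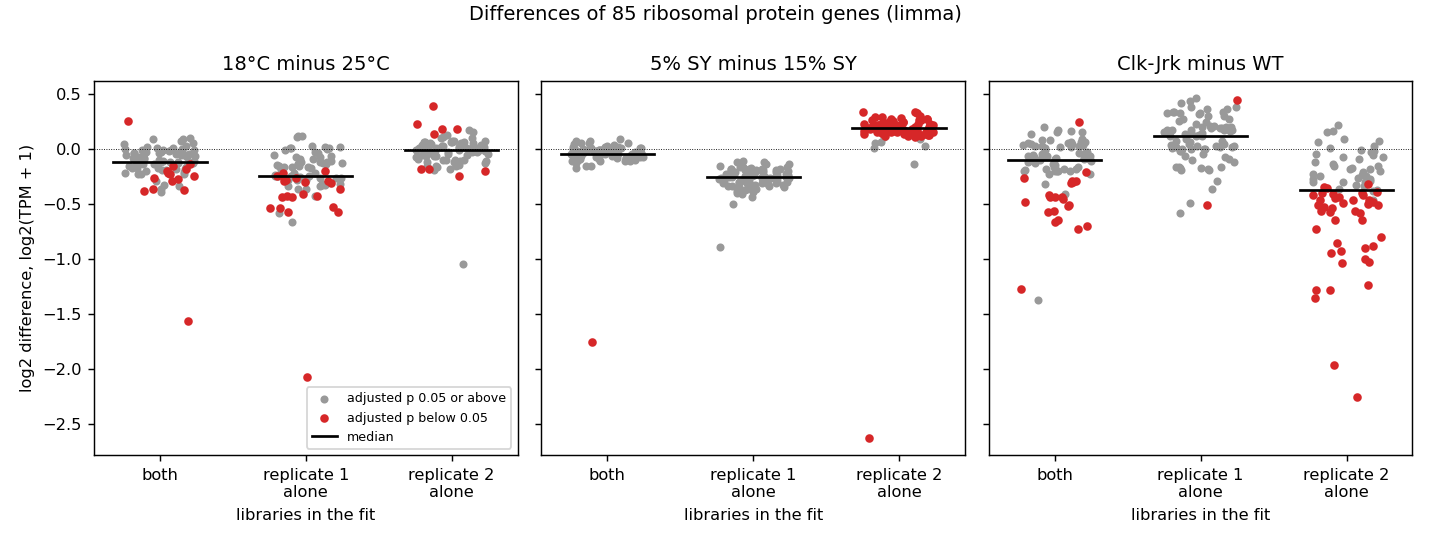
Log2 differences of the 85 tested ribosomal protein genes (y axis, on log2(TPM + 1)) for 18°C minus 25°C, 5SY minus 15SY and Clk-Jrk minus WT, with both replicates or either alone (x axis). Points are genes, red where the limma adjusted p is below 0.05, and bars are medians, which on the diet contrast lie at -0.25 for replicate 1 and 0.19 for replicate 2.

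The second comparison asked which of these genes changed with the diluted diet. With both replicates, 0 genes rose on 5SY and 1 fell, among 85 tested (limma). Over all 7000 features 6.13% rose and 21.2% fell. The median log2 difference of the ribosomal protein genes was -0.04, against -0.11 over all features, and 2 had an unadjusted p below 0.05.

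That small pooled difference joined opposite differences in the replicates. In replicate 1 alone all 85 genes had a negative log2 difference, with a median of -0.25, none passed the adjusted threshold in limma and 60 had an unadjusted p below 0.05. Over all 7301 features tested there 3 were called higher (0.0411%) and 0 lower. In replicate 2 alone 77 genes were called higher on 5SY and 1 lower, with a median of 0.19, while 12.3% of all features were called higher there. A limma term for the diet difference in replicate 2 minus that in replicate 1 was called for 73 of the 85 genes, all positive, and for 11.8% of all features. The 12 genes not called by this term were RpL3, RpL4, RpL5, RpL7-like, RpL8, RpL17, RpL34a, RpL34b, RpS3A, RpS7, RpS19a and 1 other.

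RpL37A, a zinc-binding protein of the large subunit, showed the largest positive pooled difference, 0.09 ± 0.09 (SE, limma adjusted p = 0.47). It had -0.16 in replicate 1 alone and 0.34 in replicate 2 alone. RpS29 had 0.07, RpS15Ab 0.06 and RpS23 0.06. At the low end among genes not called stood RpL7-like with -0.17, RpL8 with -0.15, RpS21 with -0.15 and RpS2 with -0.12. RpL8 and RpS21 had 0.13 and 0.19 in replicate 2 alone and were called higher there.

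The ribosomal proteins made as fusions had small differences. RpS27A and RpL40 are translated as fusions with ubiquitin, and RpS30 as a fusion with a ubiquitin-like protein. RpS27A had a median of 3682 TPM on 5SY and 3808 TPM on 15SY, with a log2 difference of -0.05 ± 0.06 (SE). RpL40 had 3120 and 3034 TPM, with -0.03 ± 0.06. RpS30 had 3378 and 3142 TPM, with 0.02 ± 0.09.

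The third comparison set Clk-Jrk, a dominant allele of the clock gene Clk, against WT at the same 6 time points (12 libraries each). In Clk-Jrk 21 genes were lower and 1 higher than in WT among 85 tested, while 36.3% of 7093 features were lower and 9.87% higher. Their median log2 difference was -0.10, against -0.22 over all features. The split depended on scaling: with median-of-ratios scaling, which brought the median of all features to -0.03, 5 genes were lower and 20 higher (20.5% of all features higher). Under that scaling 60 of the 85 genes had a positive difference. RpL34b, sta, RpL18, RpL37A and RpL22 were the 5 called lower under both scalings.

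RpL34b, the main copy of RpL34, had the largest called difference. It had a lowest value of 257, a median of 565 and a highest value of 723 TPM in Clk-Jrk, against 636, 1523 and 2139 TPM in WT. The groups overlapped: WT replicate 1 had 636, 641 and 658 TPM at ZT6, ZT18 and ZT22, within the Clk-Jrk range. The other WT values at these 6 times lay above that range. The mean in Clk-Jrk was lower at 6 of 6 time points. The log2 difference was -1.27 ± 0.24 (SE, n = 12 against 12), with a limma adjusted p of 0.00037. It was -0.58 in replicate 1 alone, not called, and -1.96 in replicate 2 alone. RpL34b took a median of 58.4% of the RpL34 pair in Clk-Jrk, against 75.6% in WT at 25°C on 15SY over all its libraries. RpL34b lies on chr3R:9400237-9401226 (minus strand) and shares no exonic bases with another gene.

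Ratios within a library do not depend on scaling. The ratio of RpL34b to RpL8 was 0.33 to 0.54 in the 12 Clk-Jrk libraries, against 0.63 to 1.11 in the 72 WT libraries of all 3 WT groups, with no overlap. This pair was chosen after the values were seen, so no test is given. Of the 79 other abundant genes, 9 gave such a separation with RpL34b, and RpL13 also separated from 9. RpL28 separated in the same direction from 7 and sta from 5, and RpS15 in the other direction from 5. Such separations were not counted over all features, so how unusual this pair is was not tested.

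sta, a small-subunit protein first named for stubarista, averaged 1501 ± 434 TPM in Clk-Jrk and 2515 ± 866 TPM in WT (SD, n = 12 each). Its log2 difference was -0.72 ± 0.20 (SE), with -0.09 in replicate 1 alone and -1.36 in replicate 2 alone. The large-subunit genes RpL35A, RpL4, RpL13A, RpL17 and RpL18 had log2 differences between -0.70 and -0.57. Their difference in replicate 2 minus that in replicate 1 was -1.08, -1.24, -1.27, -0.91 and -0.76, in the same order. That term was called for RpL18 alone among them, and only RpL18 was also called lower with median-of-ratios scaling. RpL4 reaches into the exit tunnel of the nascent chain. RpL22, known in flies also to bind the linker histone, fell by 0.42, with -0.36 and -0.48 in the separate replicates. RpL41 averaged 7199 TPM in Clk-Jrk and 10076 TPM in WT, and fell by 0.48, with -0.51 in replicate 1 alone, called, and -0.46 in replicate 2 alone, not called (adjusted p = 0.055). RpS20 was also called, with -0.20, but its difference was 0.00 under median-of-ratios scaling.

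RpS4 was the one gene called higher, with a mean of 3316 TPM in Clk-Jrk and 2785 TPM in WT and a log2 difference of 0.25 ± 0.07 (SE, limma adjusted p = 0.010). It was not called when levels were scaled to the features other than ribosomal protein genes. RpL9, RpS15Aa, RpL29 and RpS15 followed with 0.20, 0.17, 0.17 and 0.16 and were not called. With replicate 1 left out 43 genes were lower in Clk-Jrk, while 32.5% of all features were, and with replicate 2 left out 1 was lower and 1 higher, while 7.4% of all features were lower and 3.09% higher. The limma term for a difference between replicates was called for 20 of the 85 genes in this comparison, all more negative in replicate 2, and for 2.78% of all features. In the temperature comparison it was called for 4 of 85, RpL29, RpS20, RpL37a and RpS27A, and for 6.64% of all features.

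Ovary and germ line markers were also detected. The labels state that ovaries were removed at dissection. Of 17 such markers, 15 had a median above 1 TPM at 18°C, 16 on 5SY, 16 in Clk-Jrk and 17 in WT at 25°C on 15SY, and none had a median of 0. Their summed level had a lowest value of 25.8, a median of 351 and a highest value of 4938 TPM at 18°C, and 12.7, 721 and 6994 TPM on 5SY. It was 106, 953 and 2627 TPM in Clk-Jrk and 142, 1862 and 11415 TPM in WT at 25°C on 15SY. The oocyte gene osk had medians of 68.1, 81.3, 71.3 and 132 TPM in the same groups. Of the 16 markers tested, 15 were lower at 18°C (28.7% of all features) and 0 higher, and 13 were lower on 5SY (21.2%) and 0 higher (limma). Their median log2 difference at 18°C was -2.81 in replicate 1 alone and -1.14 in replicate 2 alone. On 5SY it was -0.69 and -2.54, and their summed median there was 1246 TPM in replicate 1 and 88.6 TPM in replicate 2. With replicate 1 alone, 0 of 7301 features were called lower on 5SY. The part of these markers in the differences of the ribosomal protein genes was not tested.

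Some abundant genes varied far more between libraries than others in each group. Over the 80 abundant genes the coefficient of variation had a median of 20.9% at 18°C, from 6.34% for RpL36A to 45.3% for RpL8. On 5SY the median was 24.6%, from 10.7% for RpS27A to 47.2% for RpL34b. In Clk-Jrk it was 17.5%, from 8.99% for RpS27A to 38.7% for RpL8, and in WT at 25°C on 15SY 14.4%, from 8.48% for RpL36A to 34.0% for RpL34b. Large-subunit genes made up the 6 that were among the 10 most variable of the abundant genes in every group, namely RpL4, RpL8, RpL13A, RpL23A, RpL34b and RpL35A. They were picked by this spread, so it is given as a description only.

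This spread lay mainly in replicate 1. At 18°C 33 of the 80 abundant genes had a coefficient of variation above 25% in replicate 1 and 0 in replicate 2. On 5SY these counts were 15 and 0, and in WT at 25°C on 15SY 5 and 0. In Clk-Jrk they were 7 and 13. Replicate 1 medians were lower than replicate 2 medians for 65 of the 80 genes at 18°C, for 76 on 5SY, for 0 in Clk-Jrk and for 55 in WT at 25°C on 15SY.

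RpL8 shows the pattern. At 18°C it had a lowest value of 250, a median of 982 and a highest value of 1921 TPM in replicate 1, and 1846, 1962 and 2329 TPM in replicate 2. The lowest replicate 1 libraries were ZT20, ZT22, ZT24, ZT12 and ZT16, with 250, 338, 369, 444 and 580 TPM. On 5SY it had 422, 1041 and 1707 TPM in replicate 1 and 2063, 2426 and 2771 TPM in replicate 2, with no overlap. In WT at 25°C on 15SY it had 889, 1318 and 2098 TPM in replicate 1 and 1835, 2114 and 2762 TPM in replicate 2.

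RpS15Aa, a small-subunit protein, did not follow RpL8 at 18°C or in WT at 25°C on 15SY. It had medians of 3174 TPM in replicate 1 and 3115 TPM in replicate 2 at 18°C, and 3192 and 2987 TPM in WT at 25°C on 15SY. On 5SY it had medians of 2976 and 3370 TPM, and in Clk-Jrk 3733 and 3200 TPM, where the replicates stood in the same order as for RpL8, which had 1645 and 1188 TPM in Clk-Jrk. The ratio of RpL8 to RpS15Aa was 0.08 to 0.65 in replicate 1 and 0.58 to 0.68 in replicate 2 at 18°C. Mitochondrially encoded transcripts are given by replicate for the same libraries. In WT at 25°C on 15SY they took 11.2 to 17.9% in replicate 1 and 5.8 to 7.1% in replicate 2. On 5SY they took 5.4 to 19.0% and 6.7 to 8.2%. In Clk-Jrk they took 4.0 to 8.5% and 1.9 to 11.6%. The 18°C replicate 1 library at ZT20, with the least RpL8, had the highest mitochondrial share of the series, 27.4%, and its dark-phase libraries had 16.8 to 27.4%, against 7.27 to 8.39% for replicate 2. With levels scaled to the features other than mitochondrial transcripts, 12 genes were lower and 1 higher at 18°C (20.9% and 23.7% of all features). In that fit 1 was lower on 5SY (22.7%), and 25 were lower and 1 higher in Clk-Jrk (42.4% and 8.43%). These fits compare groups and do not address the RpL8 difference between replicates. The part of the mitochondrial share in that difference was not tested.

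**Figure D3:**
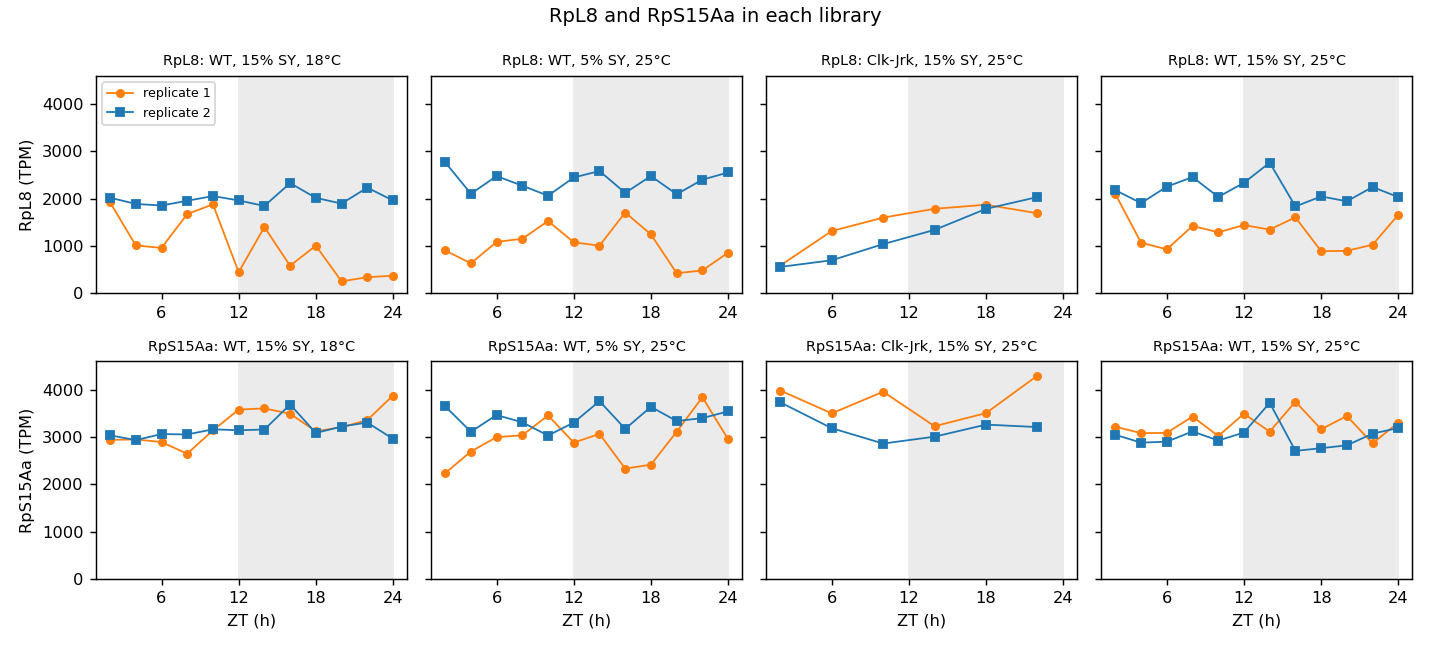
Levels of RpL8 (upper row) and RpS15Aa (lower row) in TPM (y axis) against ZT (x axis, h) in each library of the 4 groups, with replicate 1 in orange, replicate 2 in blue and the dark phase shaded. RpL8 is between 250 and 1921 TPM in replicate 1 at 18°C and between 1846 and 2329 TPM in replicate 2, while RpS15Aa replicates overlap there.

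The next question was whether these genes cycled over the day. Harmonic regression with a 24 h period was fitted to TPM in each group, and a gene was counted as cycling at an F-test p below 0.1. At 18°C 1 of 85 genes passed, against 30.1% of all features. On 5SY 0 passed, against 9.70%, and the smallest p was 0.19. In Clk-Jrk 26 passed, against 17.1%, and in WT at 25°C on 15SY 0 passed, against 18.9%, with a smallest p of 0.23. No ribosomal protein gene had an adjusted p below 0.05 in any of the 4 groups. In WT at 25°C on 15SY 0 genes had an unadjusted p below 0.05 either, and the same held on 5SY.

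The 1 gene at 18°C was RpS15Aa, with an amplitude of 219.5 ± 71.97 TPM (SE), or 6.87% of its mean, a peak at ZT17.2 and p = 0.021 (harmonic regression F-test across all features, adjusted p = 0.15). RpL5, RpS28b, RpL10 and RpL22 came next, with p between 0.14 and 0.17. The median relative amplitude was 6.73% at 18°C and 3.49% in WT at 25°C on 15SY. In that group RpS25, RpS15Ab and RpL36A were among the 5 genes with the smallest p. With median-of-ratios scaling 20 genes passed there, with a mean peak at ZT13.8, where 19.3% of all features did. On 5SY the smallest p belonged to RpL38, RpL29, RpS27A, RpS3A and RpS28b.

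In Clk-Jrk 22 of the 26 genes peaked between ZT15 and ZT21 and 4 between ZT21 and ZT3, with relative amplitudes of 9.63 to 40.2%. RpS27 had the smallest p. Its 6 values from ZT2 to ZT22 were 1121, 1406, 1499, 1567, 1780 and 1678 TPM in replicate 1 and 1103, 1157, 1369, 1621, 1657 and 1765 TPM in replicate 2. Both series were lowest at ZT2 and highest at ZT18 or ZT22. The fitted amplitude was 280 ± 59.9 TPM (SE) with a peak at ZT17.2 (harmonic regression F-test p = 0.0039, adjusted p = 0.47 across all features). RpL35A, RpL13A, RpL23A and RpL4 followed, with amplitudes of 36.4, 36.8, 27.1 and 33.7% of their means and peaks between ZT16.9 and ZT17.4.

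RpL8 was lowest at ZT2 in both Clk-Jrk series, at 584 and 556 TPM, against 1314 and 696 TPM at ZT6. RpL5 ran the other way, with 6028 and 5672 TPM at ZT2, 4528 and 4453 TPM at ZT14 and a fitted peak at ZT1.19. Adding a step between light and dark phase left 2 genes, against 23.6% of all features. With replicate 1 left out 44 of 85 passed, against 6.74% of all features, and with replicate 2 left out 1 passed, against 19.9%. At a p below 0.05 14 passed, against 9.35% of all features.

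Counts also differed between the single replicates of the WT groups on 5SY and at 18°C. On 5SY replicate 1 alone had 60 of 85 genes past p below 0.1, against 12.8% of all features, with a mean peak at ZT11.1, while replicate 2 alone had 1, against 14.4%. At 18°C replicate 2 alone had 25 genes (29.4%), near the 24.4% of all features, with a mean peak at ZT16.9. Replicate 1 alone had 11 there (12.9%), below the 32.9% of all features, with a mean peak at ZT7.92. RpS30 had the smallest p in the 5SY replicate 1 libraries, with an amplitude of 576 ± 120 TPM (SE). RpL10Ab had it in the 18°C replicate 2 libraries, with 335 ± 79.8 TPM.

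**Figure D4:**
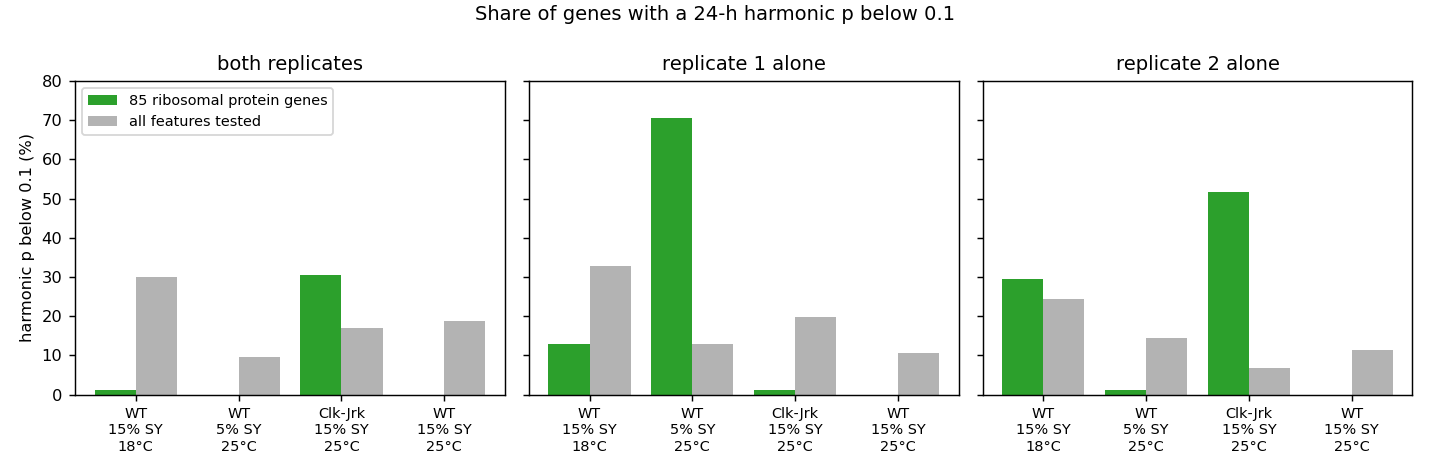
Share of genes with a harmonic p below 0.1 (y axis, %) in each of the 4 groups (x axis), for the 85 ribosomal protein genes (green) and all features tested (grey), with both replicates or either alone. With both replicates the ribosomal protein genes exceed all features only in Clk-Jrk, 30.6% against 17.1%, and the order changes in the single replicates.

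A limma test of the rhythm difference itself called 0 of 85 genes in each comparison. Over all features it called 1.05% between 18°C and 25°C, 0% between 5SY and 15SY and 0.0564% between Clk-Jrk and WT. Unadjusted p below 0.05 occurred for 0, 0 and 2 of the 85 genes, and for 23.9%, 1.41% and 9.15% of all features. One of the pair was RpS27 (p = 0.027, limma, adjusted p = 0.49) in the genotype comparison, and RpL8 had the third smallest p there. Between temperatures RpS3A and RpS15Ab were among the 3 genes with the smallest p. Between diets the smallest p was 0.45, for RpL37a, followed by RpS27 and RpS27A.

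Genes that build or use ribosomes were tested in the same fits. Of 33 ribosome biogenesis genes, 13 were lower at 18°C and 0 higher, with a median log2 difference of -0.30. On 5SY 16 were lower and 0 higher, with -0.36, and in Clk-Jrk 10 were lower and 0 higher, with -0.39. Over all features 28.7% were lower at 18°C, 21.2% on 5SY and 36.3% in Clk-Jrk, with medians of -0.06, -0.11 and -0.22, so the count in Clk-Jrk lay below the table's share. These medians were negative in both replicates fitted alone, in all 3 comparisons. The list matched Rrp1 by symbol, which in flies names a DNA repair gene, and without it the counts were 12, 15 and 10 of 32 lower. Surf6 had -0.66 at 18°C, mbm -0.65 on 5SY and the methylation factor Fib (fibrillarin) -0.86 in Clk-Jrk, all called. Nmd3, an export adaptor of the large subunit, had 0.15 at 18°C and 0.05 in Clk-Jrk, and Non1 had 0.04 on 5SY, none called.

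Of 73 mitochondrial ribosomal protein genes 38 were lower at 18°C and 0 higher, against 28.7% and 22.1% of all features. Their median there was -0.19, against -0.06 over all features. It was -0.33 in replicate 1 alone and -0.08 in replicate 2 alone. On 5SY 5 were lower and in Clk-Jrk 13, with medians of -0.10 and -0.13, and 0 were higher in any comparison by limma. The counts on 5SY and in Clk-Jrk lay below the shares of all features that were lower there, 21.2% and 36.3%. mRpL12 had -0.79 at 18°C and -0.84 in Clk-Jrk, both called, and mRpL39 -0.32 on 5SY. High values were 0.06 for mRpL41 at 18°C, 0.12 for mRpL36 on 5SY and 0.15 for mRpS17 in Clk-Jrk, none called.

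Of 37 translation factor genes 14 were lower and 3 higher at 18°C. Of 36 tested, 7 were lower and 0 higher on 5SY, and 10 were lower and 1 higher in Clk-Jrk. Over all features 28.7% were lower and 22.1% higher at 18°C, 21.2% and 6.13% on 5SY, and 36.3% and 9.87% in Clk-Jrk, so the counts on 5SY and in Clk-Jrk were near or below the table's shares. eIF3h, of the initiation factor that binds the small subunit, had -0.43 at 18°C, and eEF1alpha2, an elongation factor, 0.46. In Clk-Jrk eIF4H1 and pAbp, the poly(A)-binding protein, had -1.25 and -1.03, and eIF3g1 0.91, all called. eIF5B had -0.32 on 5SY and was called, and eIF4H1 had 0.19 there and was not.

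Of 17 tested TOR, Myc and other regulators, 4 were higher and 3 lower at 18°C, 1 higher and 2 lower on 5SY, and 0 higher and 8 lower in Clk-Jrk. The 8 lower in Clk-Jrk lay above the 36.3% of all features, and the other counts were near or below the table's shares. Myc, the growth transcription factor, had -1.52 ± 0.23 (SE) in Clk-Jrk and -0.46 ± 0.15 on 5SY, both called, and -0.33 ± 0.15 at 18°C, not called. REPTOR, a transcription factor held back by TOR, had -1.12 in Clk-Jrk. Xrp1, a regulator induced in cells with reduced ribosomal proteins, had 0.41 ± 0.09 at 18°C and was called, and -0.01 in Clk-Jrk. Of 10 muscle markers, 9 were higher at 18°C (22.1% of all features) and 9 lower in Clk-Jrk (36.3%). Their median log2 difference at 18°C was 0.91 in replicate 1 alone and 0.03 in replicate 2 alone. In Clk-Jrk it was -0.66 and -0.41. Their summed median was 3513 TPM at 18°C, 2828 TPM on 5SY, 1611 TPM in Clk-Jrk and 2575 TPM in WT at 25°C on 15SY. Their part in the differences of the ribosomal protein genes was not tested.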

How the data were processed

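Poly(A)-selected RNA was sequenced single-end from 84 fat body libraries. The authors checked reads with FastQC, trimmed adapters with Atropos, aligned them with STAR 2.7.10a and quantified them without strand by RSEM 1.3.1 on BDGP6 (Ensembl release 107), and deposited TPM, which keep no depth. The read depth behind a value is therefore unknown. TPM sum to a constant, so a change in a few abundant transcripts moves all others.

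Groups were taken from the sample titles. Features with a median above 5 TPM in either group were kept. Group means were compared with limma 3.58.1 (R 4.3.3) on log2(TPM + 1) with time point as a factor, rhythms with harmonic regression (24 h) on TPM, and rhythm differences with limma interaction terms, each adjusted (Benjamini-Hochberg) over all features. Scripts were tested on simulated data. Fold changes of low genes are understated on this scale. Coordinates and gene overlaps are from Ensembl release 115 of the same assembly, in which 92 of 92 genes were found.

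Named genes, apart from some whose results are not reported here, are the 5 highest and 5 lowest differences in each comparison, further called genes, duplicate copies, fusions and stalk proteins, the 5 smallest harmonic p per group, the 3 smallest p for rhythm differences and the extremes of other lists. Members and lists were chosen with earlier results of these data known. Alternatives were other pseudocounts, filters, scalings, covariates and left-out replicates. Identical libraries were looked for and 0 were found.

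Of 12 fat body markers tested, 4 were higher and 2 lower at 18°C, 2 were higher and 1 lower on 5SY, and 2 were higher and 3 lower in Clk-Jrk. Ovary markers in Clk-Jrk had 2 of 16 lower and muscle markers on 5SY 3 of 10 higher. Gut markers had 0 called of 4, 3 and 3. Malpighian tubule markers had 3, 3 and 5 of 7 lower. Hemocyte markers had 4 of 6, 2 of 5 and 3 of 6 higher. Epidermis and oenocyte markers had 3, 1 and 1 of 5 higher, with 1 lower in Clk-Jrk. Of 6 nervous system markers 0 passed the filter. Over all features 22.1% were higher and 28.7% lower at 18°C, 6.13% and 21.2% on 5SY, and 9.87% and 36.3% in Clk-Jrk.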

Additional observations from a re-analysis of the deposited data

Results flagged for a closer look

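The difference between groups itself differed between the replicate numbers, by a limma interaction term, for 73 of 85 ribosomal protein genes in the diet comparison, for 20 of 85 in the genotype comparison and for 4 of 85 in the temperature comparison. The median change in the difference, replicate 2 minus replicate 1, was 0.45 for diet, -0.54 for genotype and 0.20 for temperature on the log2 scale, against -0.15, -0.12 and 0.06 over all features. What the replicate numbers stand for is not given in the sources used here, so the cause was not tested.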

How the results depend on the processing

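Values keep no depth, so the precision of low genes is unknown, and TPM are shares, so every count depends on scaling. At 18°C, with 1 gene higher and 14 lower, 0 were higher with no filter on low values, 6 were lower with median-of-ratios scaling, and leaving out a replicate gave 0 to 5 higher and 4 to 22 lower. On 5SY, with 0 higher and 1 lower, leaving out a replicate gave 0 to 77 higher and 0 to 1 lower. In Clk-Jrk, with 1 higher and 21 lower, 20 were higher and 5 lower with median-of-ratios scaling, 0 were higher when scaled to features other than ribosomal protein genes, 3 were higher with no ZT term and 2 with all 24 WT libraries, and leaving out a replicate gave 0 to 1 higher, 1 to 43 lower and a median from -0.37 to 0.13. The difference of RpS20 in Clk-Jrk was 0.0025 with median-of-ratios scaling.

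Signs turned with a replicate left out. On 5SY RpL8 spanned -0.43 to 0.13, RpS21 -0.49 to 0.19 and RpS2 -0.40 to 0.16. In Clk-Jrk RpL23A spanned -0.88 to 0.0041, RpS2 -0.90 to 0.029, RpL24 -1.03 to 0.16 and RpS10b -0.53 to 0.0049.

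At 18°C, with 1 cycling gene, 2 passed with median-of-ratios scaling (31.9% of all features) and 2 when scaled to features other than ribosomal protein genes (31.3%). With a light-dark step 2 passed there (27.4%). Scaled to features other than mitochondrial transcripts 3 passed (26.7%), and leaving out a replicate gave 11 to 25. On 5SY, with 0, leaving out a replicate gave 1 to 60. In Clk-Jrk, with 26, 14 passed at p below 0.05 (9.35% of all features), 43 with median-of-ratios scaling (16.4%) and 2 with a light-dark step (23.6%). Leaving out a replicate gave 1 to 44 there. In WT at 25°C on 15SY, with 0, 20 passed with median-of-ratios scaling (19.3% of all features) and 1 when scaled to features other than mitochondrial transcripts (16.2%). The cause of these changes was not tested. A replicate block, given below, also moved counts, such as lower genes at 18°C from 14 to 30 and cycling genes in Clk-Jrk from 26 to 44. Another 118 counts and medians under changed settings stayed within 1.5 times or 1 SD of their values.

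Replicate numbers were not taken as pairs, since not every correlation between same-numbered libraries' deviations exceeded 0.1. It averaged 0.28 for temperature (-0.16 to 0.59), 0.27 for diet (-0.067 to 0.59) and -0.17 for genotype (-0.46 to 0.36), and exceeded 0.1 at 10 of 12, 11 of 12 and 1 of 6 time points. With a replicate block 2 genes were higher and 30 lower at 18°C (25.7% and 33% of all features). On 5SY 0 were higher and 1 lower (9.4% and 32.8%), and in Clk-Jrk 3 were higher and 22 lower (10.2% and 36.8%). With the block 4 genes cycled at 18°C (41.3% of all features), 4 on 5SY (14.4%), 44 in Clk-Jrk (16.6%) and 1 in WT at 25°C on 15SY (26.4%). Leaving out the libraries that stood apart, scaling to features other than mitochondrial transcripts and the term for a difference between replicates were chosen after seeing the data.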
